A study of Mus musculus with 27 samples.

Results

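G1/S hair matrix cells were the cells of full-anagen mouse back skin that held hair matrix transcription factor RNA and replication licensing RNA but little mitotic RNA, and they numbered 1334 of the 32589 barcodes from 2 mice. The matrices came from wild-type mice in anagen VI, the growth phase of the hair cycle, at about postnatal day 32, and from skin cells sorted as negative for CD45, CD31, CD140a and CD117, a sort against immune, endothelial, fibroblast and Kit-positive cells, before 10x Genomics 3′ capture. A cell entered by 7 thresholds on its own unique molecular identifier (UMI) counts. After the filter on quality, it needed at least 3 UMIs over Lef1, Msx2, Dlx3 and Hoxc13 (the hair set), at least 2 over Epcam, Cdh1, Perp and Dsp, collagen UMIs under 0.5%, keratins of the inner root sheath (IRS; Krt25, Krt27, Krt28, Krt71, Krt73) under 0.3%, at least 5 UMIs over Mcm3, Mcm4, Mcm5, Hells, Uhrf1 and Cdc6 (the MCM set) and fewer than 10 over Top2a, Cenpf, Ube2c, Prc1 and Nusap1 (the mitotic set). The members were chosen by the measured UMIs of these 28 genes, so their levels describe the choice. Since each class below was cut from the same libraries by such thresholds, no comparison between classes was given a p-value. With 2 mice, an exact paired permutation test could not go below p = 0.5.

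The hair matrix is the pool of dividing epithelial cells at the base of an anagen follicle, around the dermal papilla. Its cells divide a limited number of times while they move up and differentiate into the hair shaft, the IRS and the companion layer, under Wnt, BMP and Hedgehog signals. Before each division, the origin recognition complex with Cdc6 and Cdt1 loads the MCM2-7 helicase onto DNA in G1 (licensing), and in S phase the helicase is activated by Cdc45 and the GINS complex. Transcription of these genes depends on E2F factors, which Rb proteins hold back until cyclin D and cyclin E kinases phosphorylate them. Mitotic genes are instead bound through CHR and CCAAT elements.

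The promoters of 4 genes of the MCM set are shown beside those of 2 hair set genes, because E2F letters were more frequent in promoters of the replication lists than in the other lists below. Windows run from 250 bases upstream of the RefSeq start site to 50 bases downstream on GRCm38.p6, 5′ to 3′ on the strand of the gene, and capitals mark an E2F match on either strand. For Lef1 the first of 4 windows is shown.

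Mcm3, chr1:20820263-20820562, minus strand: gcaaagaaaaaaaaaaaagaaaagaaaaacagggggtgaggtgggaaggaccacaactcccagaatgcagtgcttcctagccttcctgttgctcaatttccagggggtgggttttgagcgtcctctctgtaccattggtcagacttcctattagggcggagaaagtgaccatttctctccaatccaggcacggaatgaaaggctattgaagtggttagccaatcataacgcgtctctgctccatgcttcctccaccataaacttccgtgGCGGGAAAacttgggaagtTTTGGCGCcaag
Mcm5, chr8:75109259-75109558, plus strand: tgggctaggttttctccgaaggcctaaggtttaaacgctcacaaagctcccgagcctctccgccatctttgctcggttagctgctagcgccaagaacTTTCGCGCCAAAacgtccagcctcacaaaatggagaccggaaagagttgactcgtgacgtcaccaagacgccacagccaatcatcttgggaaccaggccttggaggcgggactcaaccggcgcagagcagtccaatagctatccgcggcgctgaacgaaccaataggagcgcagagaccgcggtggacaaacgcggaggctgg
Hells, chr19:38930740-38931039, plus strand: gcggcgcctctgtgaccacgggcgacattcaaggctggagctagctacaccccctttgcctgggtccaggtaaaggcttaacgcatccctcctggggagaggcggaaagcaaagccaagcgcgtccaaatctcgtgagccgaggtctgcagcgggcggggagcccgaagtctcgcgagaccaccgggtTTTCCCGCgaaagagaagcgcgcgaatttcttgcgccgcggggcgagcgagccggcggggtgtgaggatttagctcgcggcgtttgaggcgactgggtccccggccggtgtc
Cdc6, chr11:98907901-98908200, plus strand: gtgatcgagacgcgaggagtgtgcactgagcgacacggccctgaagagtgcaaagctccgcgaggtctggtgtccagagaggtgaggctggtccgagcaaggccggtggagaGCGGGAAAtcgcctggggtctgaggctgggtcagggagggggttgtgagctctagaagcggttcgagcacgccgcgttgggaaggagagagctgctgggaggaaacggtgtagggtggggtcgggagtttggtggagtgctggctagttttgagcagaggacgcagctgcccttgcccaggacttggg
Msx2, chr13:53472731-53473030, minus strand: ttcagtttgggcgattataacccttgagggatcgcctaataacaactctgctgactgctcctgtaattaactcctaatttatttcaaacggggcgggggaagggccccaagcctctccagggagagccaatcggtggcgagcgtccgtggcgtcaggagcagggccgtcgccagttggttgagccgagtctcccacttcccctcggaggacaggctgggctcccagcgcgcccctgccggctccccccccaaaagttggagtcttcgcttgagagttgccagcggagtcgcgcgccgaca
Lef1, chr3:131110047-131110346, plus strand: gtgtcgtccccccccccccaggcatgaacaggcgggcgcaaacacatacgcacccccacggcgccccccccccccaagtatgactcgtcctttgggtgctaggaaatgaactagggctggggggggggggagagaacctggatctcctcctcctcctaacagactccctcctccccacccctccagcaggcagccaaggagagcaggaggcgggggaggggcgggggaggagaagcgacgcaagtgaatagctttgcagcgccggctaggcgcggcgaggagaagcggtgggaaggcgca

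The E2F letters searched were TTTCCCGC, TTTCGCGC, TTTGCCGC and TTTGGCGC on both strands. Mcm3 and Mcm5 each held 2 matches, and those of Mcm5 overlapped on opposite strands. Hells and Cdc6 each held 1, while none was found in the windows of Msx2 and Lef1. Over the 63 genes of the licensing, replication fork and nucleotide supply lists, 52 had a window in the table, and 29.5% of their 61 windows held an E2F match. The share was 3.23% of 31 windows for the mitosis list, 0% of 17 for the hair matrix transcription factors and 2.26% of all 32851 windows. The CHR letters (TTTGAA) were in 77.4% of mitosis windows, 18.03% of replication windows and 17.9% of all windows. CCAAT was in 87.1%, 55.7% and 37.4%. A match of letters describes the window and does not show binding.

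The members were 694 cells of mouse 1 and 640 cells of mouse 2. In mouse 1 they were 20.99% (95% exact binomial interval 19.6% to 22.4%) of 3307 cells that passed the lineage thresholds (matrix-gated cells), and in mouse 2 24.88% (23.2% to 26.6%) of 2572. The other matrix-gated cells were split by the same sums into 1202 and 858 cells with a mitotic set of 10 or more (G2/M) and 1411 and 1074 with an MCM set under 5 and a mitotic set under 10 (called non-cycling here). Depth moved with the class. The median was 11017 and 13536.5 UMIs in G1/S cells, 14472 and 17297.5 in G2/M cells and 8876 and 10741 in non-cycling cells. When the MCM and mitotic sums of every cell were thinned to a depth of 5000 UMIs (the lineage thresholds stayed on all UMIs), which left out 144 and 33 shallower cells, the G1/S share was 15.2% (13.97% to 16.5%) and 16.5% (15.1% to 18.05%). These intervals cover counting error only. The 2 libraries shared 62 of their barcodes.

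**Figure D1:**
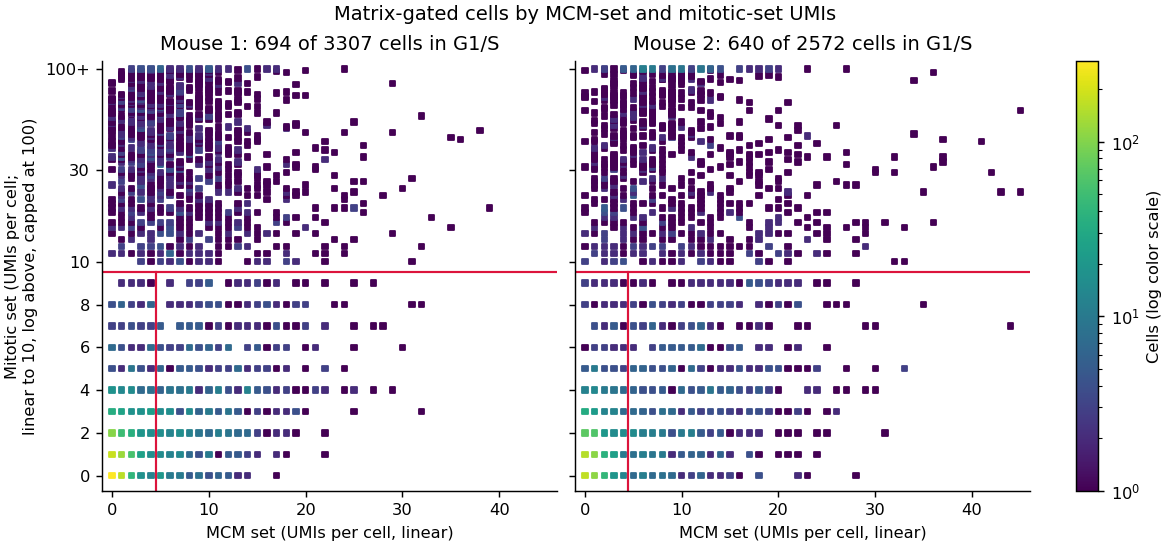
Each square is a pair of UMI sums in matrix-gated cells of 1 mouse, colored by the number of cells on a log scale. The x axis is the MCM set (linear, capped at 45), the y axis is the mitotic set (linear to 10, log above, capped at 100), and red lines are the thresholds. G1/S cells fill the lower right field, and cells lie on both sides of each line without a gap.

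The thresholds cut a continuous range. At the MCM threshold, 87 cells of mouse 1 and 59 of mouse 2 had exactly 5 UMIs, and 94 and 61 had 4 and stayed outside. Pcna, the sliding clamp of the replication fork, was at 202 and 159 CPM (UMIs of a gene scaled to a common total) just inside and at 143 and 105 just outside. At the mitotic threshold, 29 and 38 cells had 9 UMIs and 27 and 21 had 10. Pcna was then at 398 and 266 CPM inside and 306 and 268 outside, and the 2 sides could hardly be told apart by replication genes. Of cells that passed all else, 70 and 72 had a hair set of 3 and 85 and 72 had 2. Just inside that line Msx1 stood at 15 and 8.97 CPM, against 58.5 and 42.9 over all members, and Gata3, a transcription factor of the IRS lineage, at 352 and 268 CPM, against 168 and 188.

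The cell cycle part of the label was described on genes the rule did not use. Such genes are expressed together with the MCM set, so their detection is no independent test of the label. Detection in fibroblasts of the same libraries (2845 and 2423 cells with collagens at 0.5% or more and no epithelial UMI, median depth 7508 and 8910 UMIs) served as a comparison level. It is not a measure of free RNA. Cells with an epithelial UMI had been left out, and fibroblasts may hold RNA of these genes themselves. Their MCM set reached 23 and 16 UMIs. Mcm6 was detected in 77.2% and 82.8% of members against 11.1% and 13.8% of fibroblasts, Ccne2, which activates Cdk2 at S phase entry, in 49.6% and 49.8% against 3.20% and 4.62%, and Ung, a uracil-DNA glycosylase of replicating cells, in 64.6% and 59.5% against 1.69% and 2.85%. The markers in the rule were Lef1 (85.6% and 84.2% of members against 23.9% and 33.9%), Msx2 (72.3% and 71.3% against 6.01% and 8.30%), Mcm3 (78.8% and 80.9% against 7.21% and 8.87%), Mcm5 (76.8% and 78.1% against 6.89% and 7.72%) and Hells (93.8% and 96.1% against 9.10% and 12.1%). Sox9, a factor of the outer root sheath (ORS), was detected in 5.04% and 8.13% of members and in 5.03% and 7.76% of fibroblasts, so its share was near the fibroblast level. All 4 hair set genes were detected together in 30.8% and 32.03% of members, and 22 cells of each mouse passed on Lef1 alone. The hair matrix markers above were all rule genes. Outside the rule, Foxn1, a factor of hair differentiation, was detected in 6.48% and 10.3% of members against 1.05% and 1.57% of fibroblasts. Gata3 was detected in 61.2% and 68.4% of members against 10.0% and 16.8%.

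UMIs of other cell types were present. Every member held at least 4 (mouse 1) or 14 (mouse 2) UMIs of 6 fibroblast markers, with a summed level of 2410 and 3146 CPM, against 44931 and 54652 in fibroblasts and 1857 to 3005 in the other matrix-gated and ORS-type cells. At least 3 UMIs of the 5 melanocyte markers were found in 186 and 211 members, of the mural and muscle markers in 18 and 39, of dermal papilla markers in 14 and 20, of immune markers in 11 and 9, of endothelial markers in 0 and 4, of Schwann markers in 5 and 5, of adipocyte markers in 0 and 2 and of suprabasal markers in 20 and 24. Of all these lists, 1 dermal papilla and 2 adipocyte markers in mouse 1 and 1 immune marker in mouse 2 were at 0 in the members. Of the genes behind the sort, Ptprc (CD45) was detected in 1.59% and 2.03% of members and Pecam1 (CD31) in 1.59% and 3.13%. Kit (CD117) was detected in 39.2% and 45.0% of members, against 5.55% and 5.94% of fibroblasts, although the cells had been sorted as CD117-negative. A few cells set some levels. The 5 members with the most Hbb-bt UMIs held 90.12% and 95.003% of them, and without these cells the gene fell from 164 and 196 CPM to 16.4 and 9.86. The top 5 cells held 56.6% and 56.8% of Dct UMIs and 94.6% and 91.5% of Mlana UMIs, both genes of melanocytes. Kit, which is in the melanocyte list too, was spread over more cells, with 9.16% and 9.74% of its UMIs in the top 5 and 63.7 and 68.3 CPM left without them. Likewise, the top 5 cells held 2.75% and 3.17% of Pcna UMIs and 4.07% and 4.19% of Ung UMIs.

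Licensing genes were higher in the members than in non-cycling matrix cells. UMIs were summed per class and mouse as CPM, and a gene was counted as higher or lower where CPM plus 5 differed at least 2-fold the same way in both mice, with a mean of at least 20 CPM in the higher class. A gene with a mean under 20 CPM in 1 class entered only through the other class. It could then be counted only as higher there. Of 7282 genes with that level, 233 (3.2%) were higher and 206 (2.83%) lower in G1/S cells. Of the 21 licensing and origin firing genes, 20 were higher, and without the 4 that the rule used, 16 of 17 were. Their median log2 ratio was 1.80 in mouse 1 and 1.82 in mouse 2, against 0.01 and 0.02 over all genes. Mcm6, a helicase subunit outside the rule, was at 160 CPM (95% exact Poisson interval 151 to 169) and 156 CPM (148 to 165) in members and at 26.1 and 30.1 CPM in non-cycling cells. Cdt1, the helicase loader, stood at 56.0 and 61.0 CPM against 9.88 and 8.25. Gins2 was at 83.8 and 63.9 CPM against 15.4 and 10.9. In each of these the lower G1/S value exceeded the higher non-cycling value by more than the difference between mice. Dbf4, the activator of the Cdc7 kinase, was the one licensing gene not counted as higher, at 53.4 and 46.4 CPM against 25.1 and 22.6. With classes drawn on sums thinned to 5000 UMIs, and CPM still taken from all UMIs, the mean log2 ratio of Mcm6 was 1.45 in place of 2.30 and that of Lig1, a fork gene, 1.53 in place of 2.69. For comparison, the rule genes Mcm3, Mcm5 and Cdc6 stood at 162 and 148, 147 and 129, and 44.7 and 38.8 CPM in members.

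Genes of the replication fork and of chromatin assembly followed the same split. Outside the rule, 27 of 28 measured genes were higher than in non-cycling cells, and Rpa3 was the exception at 74.0 and 55.2 CPM against 43.3 and 33.1. Lig1, which joins Okazaki fragments, stood at 261 and 232 CPM against 40.7 and 28.3. Pcna was at 267 and 237 CPM against 56.5 and 48.1. Pola1, the catalytic subunit of the polymerase that primes DNA synthesis, was at 230 and 337 CPM against 55.9 and 77.9, and it differed between the 2 mice within both classes. In nucleotide supply, 9 of 10 genes were higher, with Rrm2, a subunit of ribonucleotide reductase, at 145 and 117 CPM against 22.1 and 18.7. Only Cad was not counted, at 53.9 and 58.5 CPM against 32.4 and 28.1. All 13 measured genes of S-phase DNA repair were higher, among them Brca1 at 54.7 and 66.1 CPM against 7.95 and 9.01. Genes under 20 CPM in non-cycling cells, Brca1 among them, could be counted only as higher.

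The regulators of G1 were less uniform, with 8 of 20 measured genes higher and 1 lower. Of the E cyclins, Ccne1 was at 39.7 and 34.0 CPM against 4.01 and 2.95, and Ccne2 at 88.8 and 77.4 CPM against 7.95 and 7.24. E2f1 stood at 52.4 and 47.9 CPM against 6.87 and 7.57. The E cyclins and E2f1 were under 20 CPM in non-cycling cells and could be counted only as higher. Ccnd2 was the most abundant D cyclin, at 1335 and 1230 CPM against 567 and 481, whereas Ccnd1 was at 156 and 186 CPM against 97.3 and 116 and did not reach 2-fold. The kinase inhibitor Cdkn1a (p21) was the only regulator counted as lower, at 39.3 and 42.4 CPM against 187 and 152. Rb1 was at 134 and 158 CPM against 137 and 145, and Cdkn1b (p27) at 68.0 and 64.7 CPM against 69.7 and 71.5, so neither differed beyond the spread between mice.

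Against G2/M matrix cells the members differed by what they lacked. Of 6929 genes, 3 (0.0433%) were higher in G1/S cells and 136 (1.96%) were lower. The 3 were Ung, at 115 and 89.5 CPM against 26.5 and 30.9, Hbb-bt, whose UMIs came from few cells, and Fbxl20, an F-box protein gene at 59.6 and 78.6 CPM against 22.0 and 32.5, which was under the level set for naming and is named after its values were seen. Of 34 mitosis genes, 33 were lower, and without the rule's 5 genes 28 of 29 were, with a median log2 ratio of -1.83 and -1.88. Mki67, the proliferation antigen, was at 203 and 234 CPM against 617 and 687, and Ccnb1, the cyclin of mitotic entry, at 40.2 and 29.9 CPM against 165 and 129. Ccnb2 was the exception, at 62.1 and 49.5 CPM against 125 and 94.6. The lower genes included 28 of 33 measured replication-dependent histone genes, and Hist1h2ap was at 72.5 and 54.0 CPM against 370 and 370. Against non-cycling cells 11 genes of this histone list reached the level, so the same limit holds for others of the 33. The other genes lowest against G2/M cells were Hmmr, a spindle protein (19.5 and 23.0 CPM against 157 and 164), Ckap2l (18.8 and 15.9 against 117 and 117) and the histone genes Hist1h2ae, Hist1h3c and Hist2h2ac. With classes drawn on thinned sums, the mean log2 ratio of Hist1h2ap was -1.07 in place of -2.47, while that of Ung was 2.83 in place of 1.67. That of Hbb-bt fell to 0.65 from 1.61 and was no longer 2-fold. Most histone messages of this kind end without a poly(A) tail, and these libraries were primed on poly(A).

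Licensing RNA itself differed little between the 2 cycling classes. Outside the rule, 0 of 17 licensing genes were 2-fold higher than in G2/M cells, and the median log2 ratio was 0.16 and 0.21. Dbf4 was lower, at 53.4 and 46.4 CPM against 116 and 114. Gins2, at 83.8 and 63.9 CPM against 33.8 and 30.3, and Mcm2, at 84.4 and 78.2 CPM against 44.6 and 47.6, lay on the higher side in both mice. Rrm2 (145 and 117 CPM against 169 and 156) and Tyms (187 and 112 CPM against 251 and 177) lay on the lower side. The mitotic threshold thus left cells with replication RNA on both sides, and the phase of single cells was not measured independently.

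**Figure D2:**
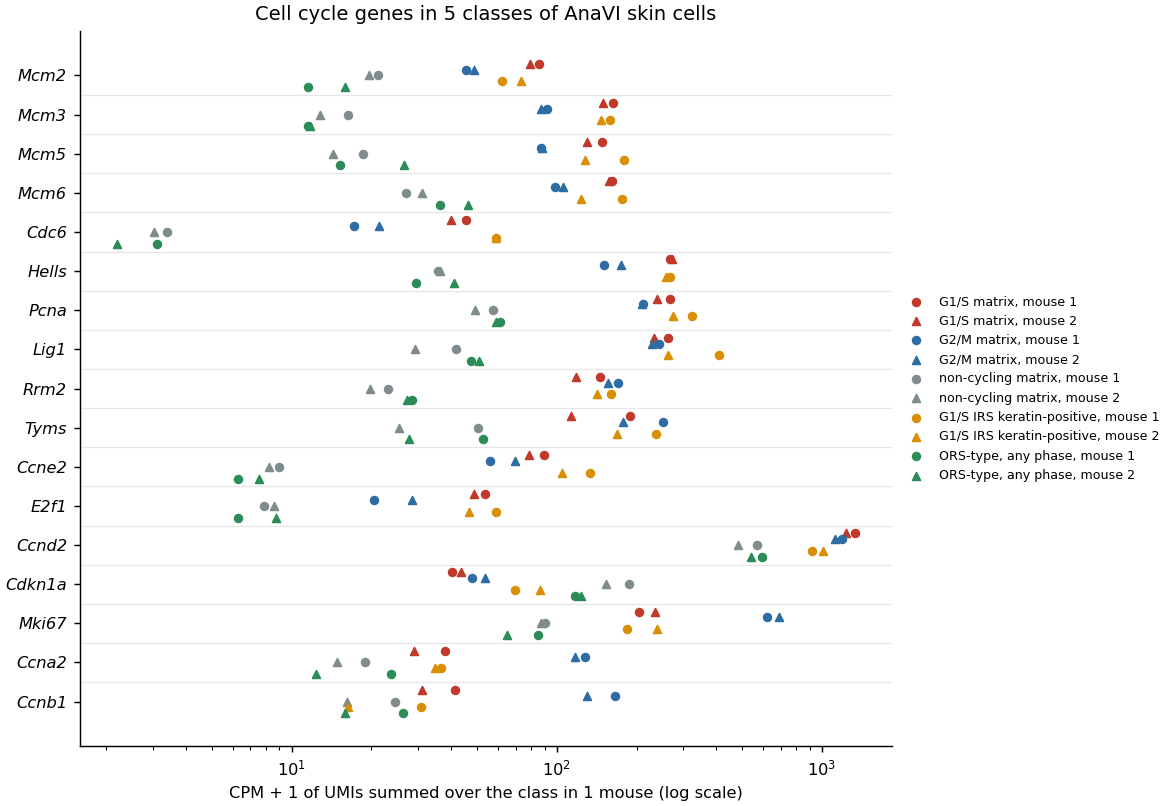
CPM plus 1 of summed UMIs on a log axis for cell cycle genes, with circles for mouse 1 and triangles for mouse 2 and a color for each of 5 classes. Mcm6, Pcna and Ccne2 are highest in the 3 cycling classes and several-fold lower in non-cycling matrix and ORS-type cells, Mki67, Ccna2 and Ccnb1 are highest in G2/M cells, and Cdkn1a is lowest in G1/S and G2/M matrix cells.

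Over 6 classes in 2 mice (12 points, which share 2 libraries), the genes whose log2 CPM most resembled the mean of the MCM set were Lig1 (Pearson r = 0.979), Rfc1 (0.968), Mcm6 (0.965), Exo1 (0.962), Paics (0.954) and Chek1 (0.954). The 6 classes included 1 and 5 G1/S ORS-type cells, and without those points r was 0.965 to 0.995 for the same genes.

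Of 17 measured hair matrix transcription factors, 0 were higher and 0 lower than in G2/M cells, where 0.0433% and 1.96% of all genes were, so the count does not set the factors apart. Msx1 lay on the lower side in both mice, at 58.5 and 42.9 CPM in G1/S and 84.8 and 65.5 in G2/M cells. Dlx2 was at 57.6 and 53.0 against 65.1 and 48.8, and Trps1 at 355 and 448 against 378 and 495. Against non-cycling cells, where 2.83% of all genes were lower, 3 of 17 were lower and none higher. Prdm1 (Blimp1) was at 19.8 and 20.2 CPM against 77.6 and 81.1, Foxq1, which is required for the inner medulla of the hair shaft, at 28.9 and 21.6 CPM against 180 and 130, and Hoxc13, a rule gene, at 154 and 162 CPM against 420 and 396. Lef1, the Wnt effector, was also in the rule, at 562 and 596 CPM against 826 and 885, and Msx2 at 147 and 126 CPM against 166 and 122.

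Genes of the differentiated hair shaft were low. Krt35, an early keratin of the hair cortex and cuticle, stood at 109 and 80.4 CPM against 1589 and 782 in non-cycling cells, and Tchh, trichohyalin, which the medulla and the IRS express, at 46.7 and 73.7 CPM against 559 and 540. Of the 6 measured IRS genes, which include rule keratins, Tchh was the only one counted, and 4 had ratios above 0 in both mice. Of 12 hair shaft keratins, 2 reached the level for a comparison, and both were lower. Only Krt35 reached that level in the members. The other keratin entered through the non-cycling cells alone, so it could be counted only as lower, and its direction adds nothing to the result for Krt35. In mouse 2, 1 cell held 226 of 227 Krt31 UMIs, 193 of 195 Krt33a UMIs and 234 of 240 Krt83 UMIs. Besides these, the genes lowest against non-cycling cells were Cst6 (16.5 and 12.2 CPM against 218 and 181) and Csta1 (5.71 and 9.67 against 104 and 108), both protease inhibitors, S100a3, a calcium-binding protein of the hair cuticle (41.6 and 23.8 against 401 and 191), and Dapl1 (116 and 90.8 against 1176 and 572). The highest were Slfn9 (102 and 113 CPM against 11.2 and 10.9), Ung, Lig1, Pclaf, a PCNA-binding protein (343 and 278 against 68.9 and 39.2), Rrm2 and Mcm6. Dermal papilla markers moved with this contrast. Their sum was 40.7 and 51.1 CPM in members and 231 and 296 CPM in non-cycling cells, and melanocyte markers stood at 427 and 300 CPM against 778 and 1066. Mural and muscle markers stood at 104 and 159 CPM against 268 and 598, and both measured genes of that list, Acta2 and Tagln, were counted as lower. Their part in the differences was not tested.

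The members were then set beside ORS-type cells (Krt5 and Krt14 at 0.5% of UMIs or more, Sox9 detected, hair set under 3; 272 and 182 cells), the neighboring layer that is continuous with the stem cell region. This class was not restricted to G1/S, because only 1 and 5 of its cells were in G1/S by the same sums. Of 7550 genes, 789 (10.5%) were higher in the members and 788 (10.4%) lower. The hair matrix factors outside the rule were higher in 8 of 13 measured genes and lower in 1. Msx1 was at 58.5 and 42.9 CPM against 6.85 and 3.58, Dlx4 at 51.8 and 41.4 against 4.21 and 3.58, Ovol1 at 45.6 and 49.6 against 10.5 and 10.7, and Cux1 at 1059 and 1753 against 104 and 167. Msx1, Dlx4 and Ovol1 averaged under 20 CPM in ORS-type cells, so they could be counted only as higher. Vdr, the vitamin D receptor, was lower, at 68.3 and 87.1 CPM against 150 and 211. Of 11 stem cell and ORS factors, 6 were lower and none higher. Barx2 was at 10.5 and 26.2 CPM against 686 and 759, Tbx1 at 13.7 and 21.7 against 152 and 184, and Sox9, which defined the ORS-type cells, at 10.2 and 15.7 against 554 and 564. Barx2, Tbx1 and Sox9 averaged under 20 CPM in members, so they could be counted only as lower. Against G2/M cells 7 of the 11 reached the level, so some of the 11 entered only through the ORS-type cells. Lhx2, at 61.2 and 82.7 CPM against 109 and 141, did not reach 2-fold. Markers of other cell types moved with this contrast too. Melanocyte markers summed to 427 and 300 CPM in members against 57.4 and 78.1 in ORS-type cells, with 3 of 5 (Kit, Dct and Mlana) counted as higher, and dermal papilla markers to 40.7 and 51.1 against 135 and 174. Their part was not tested.

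Structural genes of the basal layer followed the factors. Krt15 was at 306 and 381 CPM against 2062 and 1874, and Krt17 at 354 and 347 against 7299 and 4739, while Krt5 and Krt14 had defined the class. Of 14 measured adhesion genes outside the rule, 10 were lower and none higher. Col17a1, a hemidesmosome collagen, stood at 46.7 and 50.2 CPM against 380 and 499, and Dsg3 at 41.7 and 47.0 against 254 and 226. Cdh3 (P-cadherin) was at 159 and 200 CPM against 169 and 183, without a difference beyond the spread between mice. Ribosome biogenesis genes were higher in 12 of 15, with nucleolin (Ncl) at 1710 and 1571 CPM against 424 and 438. Against non-cycling matrix cells only 2 of the 15 reached 2-fold, although all 15 ratios were above 0 in both mice.

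Signaling genes were set beside the ORS-type level, above which 10.5% of all genes lay by the same count. In the Hedgehog pathway 5 of 7 measured genes were higher. The receptor Ptch1 (141 and 207 CPM against 30.6 and 42.3) and the effector Gli1 (31.0 and 31.1 against 12.6 and 7.75) are also targets of the pathway. The ligand Shh was at 19.8 and 28.2 CPM against 1.05 and 1.19. In the Wnt pathway 5 of 9 were higher, among them Axin2, a feedback target, at 31.6 and 30.8 CPM against 8.96 and 12.5, and Wnt5a at 86.3 and 86.8 against 13.2 and 11.3. In the BMP pathway 6 of 10 were higher and Id4 was lower. Id3, a BMP target, stood at 522 and 375 CPM against 71.1 and 57.2, and Bmp4 at 26.4 and 29.5 against 2.11 and 4.17. Of these named genes, Shh, Gli1, Axin2, Wnt5a and Bmp4 averaged under 20 CPM in ORS-type cells. They entered only through the members and could be counted only as higher. None of the 7 Hedgehog genes, 9 Wnt genes or 10 BMP genes measured against G2/M cells was counted as higher or lower there, where few genes of any kind were. Against non-cycling cells 2 of 8 Hedgehog genes (Gli3 and Hhip), 1 of 11 Wnt genes (Wnt3) and 1 of 11 BMP genes were lower and none was higher. In that comparison 2.83% of all genes were lower and 3.2% higher. Gli3 was at 173 and 302 CPM against 507 and 781, and the BMP decoy receptor Bambi at 53.5 and 44.4 CPM against 172 and 120. The ectodysplasin receptor Edar was higher, at 28.2 and 45.0 CPM against 11.3 and 18.2. Other genes far above the ORS-type level were Cldn10 (238 and 144 CPM against 7.37 and 4.77), Mt2 (1494 and 1255 against 108 and 97.1), Odc1, which makes polyamines (395 and 333 against 27.4 and 32.2), Nrp2 (256 and 324 against 20.5 and 26.2) and Cdh6 (281 and 317 against 22.7 and 26.8). Far below it were Sbsn (9.52 and 23.9 against 956 and 822), Cst6 (16.5 and 12.2 against 703 and 460) and Defb6 (5.58 and 2.84 against 236 and 408).

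In the retinoid pathway, which the series addresses in culture, 12 of 21 genes reached the level for a comparison with non-cycling matrix cells, and 4 were lower and none higher. Of all genes, 2.83% were lower and 3.2% higher there. Against G2/M cells 10 of the 21 reached the level, so some of the 12 entered only through the non-cycling cells. Aldh1a3, which makes retinoic acid, was at 55.2 and 91.3 CPM against 328 and 368, and Stra6, the retinol transporter, at 27.4 and 19.1 against 73.3 and 48.5. The receptors Rxra (35.7 and 37.4 CPM against 39.4 and 41.3), Rara (39.7 and 34.4 against 45.2 and 41.8) and Rarg (39.1 and 47.1 against 57.5 and 56.1) stayed within 2-fold. Cyp26a1, which degrades retinoic acid, was at 0.13 CPM in mouse 1 and had no UMI in mouse 2.

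**Figure D3:**
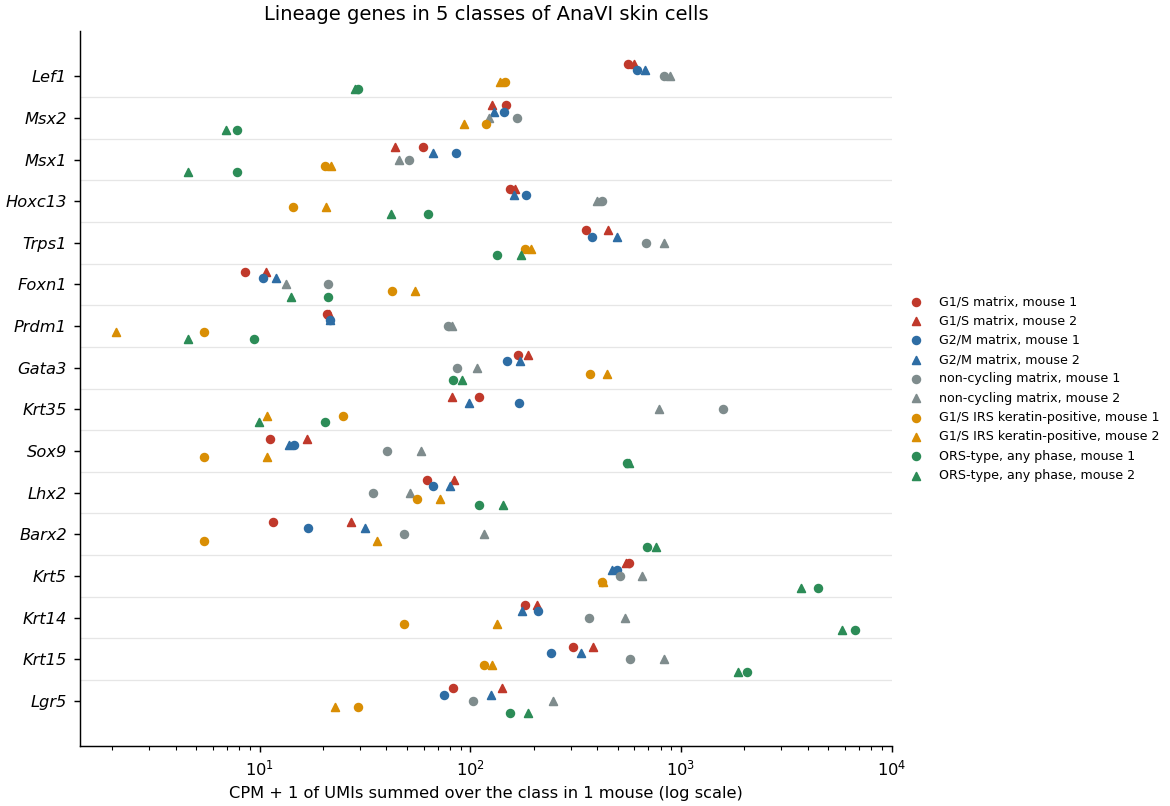
CPM plus 1 of summed UMIs on a log axis for lineage genes in the same 5 classes, with circles for mouse 1 and triangles for mouse 2. Sox9, Barx2, Krt14 and Krt15 are highest in ORS-type cells, Krt35 and Prdm1 in non-cycling matrix cells, and Gata3 and Foxn1 in IRS keratin-positive cells.

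Another cycling class was the 66 and 65 cells that passed the G1/S sums but held IRS keratins at 0.3% of UMIs or more. Of 6959 genes, 142 (2.04%) were higher in the members and 64 (0.92%) lower, and with either mouse alone 262 to 299 and 93 to 125 passed. No gene of the licensing, fork or nucleotide lists was counted in either direction. Of 14 hair matrix factors outside the rule, 3 were higher and 1 lower. Runx1 stood at 137 and 159 CPM against 37.2 and 52.4, Prdm1 at 19.8 and 20.2 against 4.47 and 1.09, and Foxq1 at 28.9 and 21.6 against 8.94 and 3.28. Foxn1, the nude factor of hair differentiation, was lower, at 7.49 and 9.67 CPM against 41.7 and 53.5. Prdm1 and Foxq1 reached 20 CPM only in the members, and Foxn1 only in the IRS keratin-positive cells. The filter thus set the direction in which each of them could be counted. Gata3 was lower too, at 168 and 188 CPM against 369 and 443. Odc1 was higher (395 and 333 CPM against 38.7 and 49.1) and so was Lgr5 (81.7 and 141 against 28.3 and 21.8), a receptor for R-spondins. Maf (33.5 and 41.6 against 176 and 215), the protease Ctsc (51.9 and 40.3 against 292 and 238), Dmkn, Lgals3, Pof1b and Taf13 were lower. Hbb-bt, Hba-a1, Hbb-bs, Kitl and Dct led the higher genes. The hemoglobin UMIs and most Dct UMIs came from a few cells each, as above. Without cells that held other markers, the mean log2 ratio of Dct was 0.22 in place of 2.11. Dct is itself among those markers, so its fall was built into that filter. Melanocyte markers summed to 427 and 300 CPM against 96.8 and 108, and mural and muscle markers to 104 and 159 against 65.5 and 32.8. Their part was not tested.

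The members themselves were a mixture of matrix lineages. Shh, which marks a subset of matrix cells, was detected in 55 cells of mouse 1 (7.93%) and 66 of mouse 2 (10.3%), against 0.88% and 1.53% of fibroblasts. Between cells with and without it, 80 genes (1.14% of 7003) were higher and 34 (0.486%) lower. Scube1, a secreted protein that binds Hedgehog ligands, was at 140 and 188 CPM against 8.17 and 10.2. Lrp4, a receptor that modulates Wnt and BMP signaling, stood at 204 and 261 CPM against 21.1 and 21.2, and the secreted Wnt inhibitor Wif1 at 287 and 377 against 30.8 and 41.7. Alcam, an adhesion molecule, was at 1069 and 2133 CPM against 170 and 229, and Edar at 78.5 and 144 against 23.6 and 33.4. Ptch1 was at 171 and 230 CPM in these cells and 139 and 205 in the others. Lower were Creb5 (69.5 and 157 CPM against 311 and 493), Lgr5 (18.1 and 63.9 against 87.6 and 150) and Pcdh7 (147 and 301 against 415 and 834). Mcm3 was at 174 and 138 CPM in cells with Shh and 161 and 149 in cells without. Every member had been chosen on the MCM set, so these levels do not compare the cell cycle between the 2 groups. The median depth was 11279 and 12613.5 UMIs with Shh and 10987 and 13556 without.

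Gata3 parted the members differently. It was detected in 425 cells of mouse 1 (61.2%) and 438 of mouse 2 (68.4%), against 10.0% and 16.8% of fibroblasts, although IRS keratins had been held under 0.3% of UMIs. Of 6909 genes, 40 (0.579%) were higher with Gata3 and 45 (0.651%) lower. Lgr5 was at 112 and 175 CPM against 30.5 and 58.3, the transcription factor Pou3f1 at 101 and 106 against 25.1 and 29.4, and Irx2 at 109 and 134 against 42.4 and 46.0. Lower were Odc1 (221 and 181 CPM against 685 and 698), Tchh (28.8 and 35.8 against 76.6 and 165) and Aldh1a3 (32.9 and 37.9 against 92.5 and 219). Lef1 stood at 380 and 390 CPM with Gata3 and 868 and 1092 without. Hoxc13 was at 99.0 and 106 CPM against 245 and 296.

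Few members had started to express hair shaft keratins. At least 5 UMIs over that list were found in 30 cells of mouse 1 (4.32%) and 24 of mouse 2 (3.75%), and none in 451 and 455. Between these, 85 genes (1.21% of 7018) were higher with the keratins and 137 (1.95%) lower. Dapl1 was at 1069 and 913 CPM against 43.2 and 45.9, and Hoxc13, which activates hair keratin genes, at 485 and 569 against 104 and 104. Trps1 stood at 796 and 1060 CPM against 291 and 398, and Ovol1 at 134 and 154 against 35.7 and 35.6. Lower were Gata3 (41.5 and 23.7 CPM against 205 and 224), Slit3 (55.4 and 54.5 against 290 and 551) and Lgr5 (27.7 and 18.97 against 105 and 171). Pcna was at 219 and 199 CPM against 270 and 246, and Mki67 at 111 and 159 against 209 and 234.

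Basal keratin RNA marked another edge. With at least 20 UMIs of Krt5 and Krt14 (41 and 55 cells) against 0 to 4 (212 and 211 cells), 121 genes (1.66% of 7292) were higher and 37 (0.507%) lower. Krt15 was at 706 and 931 CPM against 122 and 70.1, Cxcl14 at 617 and 762 against 193 and 112, and Sox9 at 73.6 and 98.4 against 7.05 and 8.65. Sox9 had 80 and 138 UMIs over all members, and the 5 cells with the most held 52.5% and 54.3% of them. Median depth moved with this split, at 14787 and 17233 UMIs against 9272.5 and 10350, and its part was not tested. Between 4 to 9 and 0 UMIs of the mitotic set, 29 genes (0.412% of 7040) were higher, and those at 100 CPM or more were Hbb-bt, Hbb-bs and Hba-a1. Ccne2 rose along these sums in mouse 1, from 38.0 CPM at 0 to 65.7 at 1 to 3 and 117 at 4 to 9, and was at 67.7, 56.6 and 93.2 CPM in mouse 2.

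**Figure D4:**
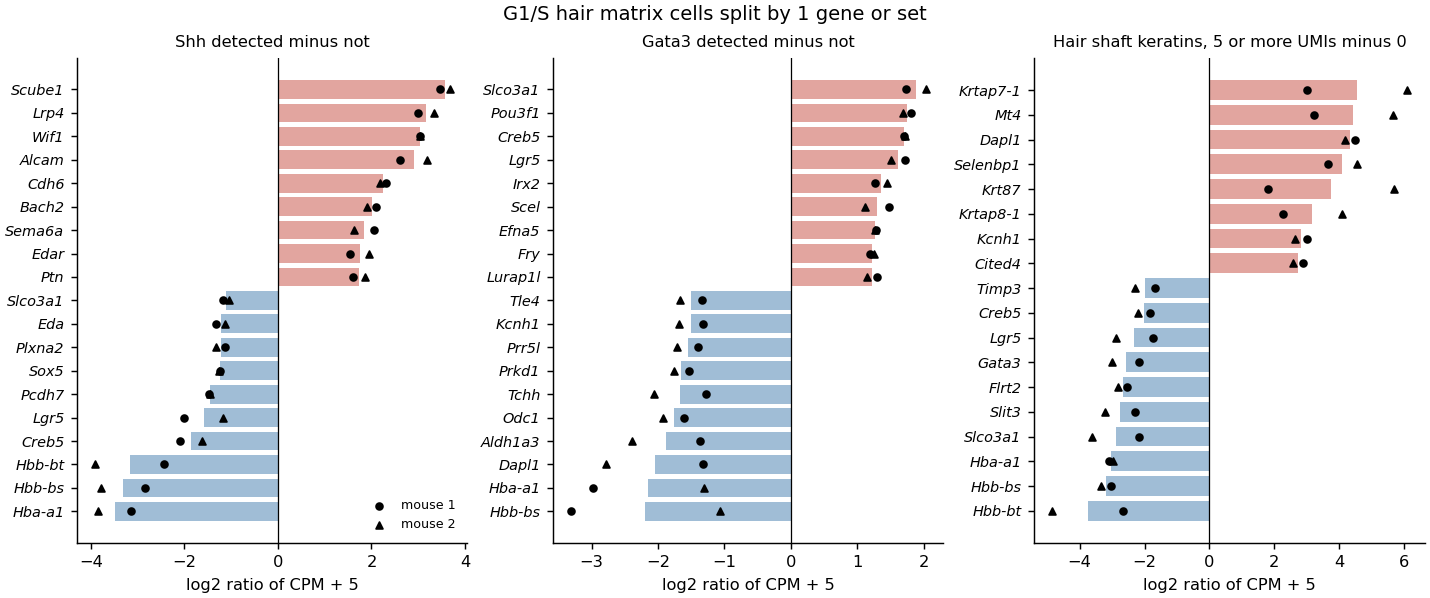
Bars are the mean over 2 mice of the log2 ratio of CPM plus 5 between G1/S hair matrix cells with and without Shh, with and without Gata3, and with 5 or more against 0 hair shaft keratin UMIs, with circles for mouse 1 and triangles for mouse 2. Up to 10 genes each way are drawn without those that define the split. Scube1, Lrp4 and Wif1 lead the Shh split, Lgr5 is among the higher genes with Gata3 and the lower genes of the other panels, and hemoglobin bars rest on a few cells.

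The 2 mice gave similar members. Of 6661 genes, 23 (0.345%) were at least 2-fold higher and 10 (0.15%) at least 2-fold lower in the members of mouse 2. Cwc22, a splicing factor, was at 120 and 947 CPM. Its log2 difference was 2.93 in members, 2.90 in G2/M cells, 2.96 in non-cycling cells and 2.65 in fibroblasts, so it went with the mouse and not the class. Rbms3 (62.2 and 157 CPM), Immp2l (92.0 and 226) and Glo1 (74.6 and 170) followed. With 1 mouse on each side, no test was possible.

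Cultured hair follicle stem cells (HFSCs) rarely passed the same rule. It took 6 of 262 kept cells of mouse 1 (2.29%, interval 0.845% to 4.92%) and 2 of 94 of mouse 2 (2.13%, 0.259% to 7.48%), pooled over all culture conditions. Msx2 had 0 UMIs in both matrices, which allows up to 1.15% and 3.19% of cells with a UMI (3 cells of each total). Lef1 stood at 3.99 and 4.54 CPM. The other hair set genes were detected, with Hoxc13 at 38.0 and 36.3 CPM (305 and 104 UMIs) and Dlx3 at 13.0 and 15.7 CPM, and 60 and 19 cells passed the lineage thresholds. Fewer, 16 and 9 kept cells, met the MCM and mitotic sums, so the pass rate does not measure hair set RNA alone. The matrices held 449 and 208 barcodes. Median depth was 29322.5 and 23958.5 UMIs in kept cells, above that of the members, while the thresholds stayed at the same UMI counts. Krt14 was at 11956 and 11184 CPM. These cells are of another origin, and the few that passed were not compared further.

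Whether the replication and hair matrix genes moved in culture was tested in bulk RNA-seq, whose 8 libraries the rule did not use. HFSCs from telogen skin at postnatal day 55 were grown in fetal bovine serum (FBS) or in all-trans retinoic acid with a protein kinase C inhibitor (atRA+PKCi), a medium in which the B-27 supplement also replaced the serum, so that the agents and the serum cannot be told apart. Cultures were wild-type or Sox9-CreER;Rxra fl/fl;R26-YFP (Rxra cKO), with 2 mice per genotype that each gave 1 library per medium, and library totals were 25150162 to 35879630 counts. In wild-type cultures Rxra was at 149 and 122 CPM with FBS and at 147 and 143 CPM with atRA+PKCi. It was at 97.2 and 95.7 CPM in FBS libraries labelled Rxra cKO and 148 and 145 in atRA+PKCi libraries labelled so. Gene counts include the exons that the conditional allele keeps, so these levels do not check the label. A bulk level cannot tell fewer cycling cells from less RNA per cell.

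In wild-type cultures replication genes went both ways. Across 15965 genes tested by quasi-likelihood in edgeR, with Benjamini-Hochberg adjusted p-values, atRA+PKCi raised 27.2% and lowered 26.6%. Of the 63 replication genes, 19 were higher and 10 lower at adjusted p under 0.05. Mcm6 rose from 45.9 and 45.4 CPM to 67.5 and 66.8 (log2 fold change 0.56 ± 0.07 SE, n = 2 per group, edgeR adjusted p = 0.000122). Mcm7 rose from 57.9 and 59.0 to 89.6 and 87.8 CPM, and Umps from 22.9 and 23.2 to 34.8 and 33.8. Rrm2 fell from 134 and 125 to 69.2 and 70.7 CPM (log2 fold change -0.89 ± 0.08, edgeR adjusted p = 2.23e-05), Tk1 from 49.3 and 50.4 to 28.3 and 26.3, and Pcna from 286 and 359 to 220 and 230. The median over the list was 0.08, against 0.03 over all genes. Without wild-type atRA+PKCi replicate 1, 12 genes of the list were higher.

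In libraries labelled Rxra cKO the same list was lower. Of all genes, 20.8% rose and 22.2% fell with atRA+PKCi, whereas 48 of the 63 replication genes were lower and 0 higher (0 at an unadjusted p under 0.05 and 0 by DESeq2), with a median log2 fold change of -0.48 against 0.02 over all genes. Hells fell from 91.8 and 86.9 CPM to 41.2 and 39.7 (log2 fold change -1.14 ± 0.09, edgeR adjusted p = 1.96e-05), and Pola1 from 44.8 and 40.5 to 21.8 and 22.7. Mcm3 fell from 47.8 and 41.1 to 33.7 and 35.5 CPM, and Mcm5 from 52.2 and 44.9 to 28.8 and 29.9. Mcm7 was at 72.1 and 63.8 CPM in FBS and 67.2 and 72.7 in atRA+PKCi, and its groups overlapped. Without Rxra cKO FBS replicate 1, or without Rxra cKO atRA+PKCi replicate 1, 30 genes were lower.

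The change with medium differed between genotypes. The interaction term called 13.3% of all genes higher and 11.3% lower in libraries labelled Rxra cKO, and among replication genes 39 lower and 0 higher (0 at an unadjusted p under 0.05 and 0 by DESeq2), with a median of -0.55 against -0.01. For Pola1 the difference was -1.42 ± 0.11 (edgeR adjusted p = 5.35e-05), and for Hells -1.15 ± 0.13 (adjusted p = 0.000355). The genotypes started from different FBS levels for genes of this list. Hells was at 43.4 and 47.9 CPM in wild-type FBS and 91.8 and 86.9 in FBS libraries labelled Rxra cKO. Pola1 was at 27.1 and 26.7 against 44.8 and 40.5, and Mcm6 at 45.9 and 45.4 against 75.6 and 71.3. Pcna went the other way, at 286 and 359 against 171 and 181. The part of the FBS level in the interaction was not tested. Without 1 library, 17 to 41 genes were lower. The count was 17 without Rxra cKO atRA+PKCi replicate 1, 21 without its replicate 2, 23 without Rxra cKO FBS replicate 1 and 24 without wild-type atRA+PKCi replicate 1.

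Hair matrix factors went both ways in both genotypes. Of all genes, 27.2% rose and 26.6% fell with atRA+PKCi in wild-type, and 20.8% and 22.2% in libraries labelled Rxra cKO. Lef1 had 3 to 6 counts per library and was not tested. In wild-type cultures atRA+PKCi raised 5 of the other 17 and lowered 8 (3 raised without wild-type atRA+PKCi replicate 1). In libraries labelled Rxra cKO 4 rose and 4 fell. These 2 counts and the 5 raised in wild-type lay near the shares of all genes, so they do not set the factors apart. Prdm1 was at 61.6 and 61.0 CPM in wild-type FBS and 1.70 and 1.68 in atRA+PKCi (log2 fold change -5.18 ± 0.21, edgeR adjusted p = 1.69e-07), and at 45.5 and 67.2 against 10.2 and 9.09 in libraries labelled Rxra cKO. Foxn1 fell from 4.78 and 4.56 to 0.42 and 0.29 CPM in wild-type but was at 3.96 and 3.24 against 4.40 and 2.91 in the others. Trps1 rose in both, from 5.29 and 4.48 to 13.3 and 12.5 CPM in wild-type and from 5.29 and 5.21 to 15.3 and 13.4 in libraries labelled Rxra cKO. Msx2 rose from 4.27 and 4.64 to 7.25 and 6.43 CPM and from 4.71 and 4.47 to 10.97 and 11.18. Ovol1 fell in both, from 52.7 and 47.7 to 9.40 and 9.76 CPM in wild-type. The interaction called 5 of the 17 higher and 1, Foxq1, lower in libraries labelled Rxra cKO, and without Rxra cKO atRA+PKCi replicate 1 it called 0 lower. Of all genes, the interaction called 13.3% higher and 11.3% lower. With the mouse as a block it called 4 of the factors higher and 1 lower.

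**Figure D5:**
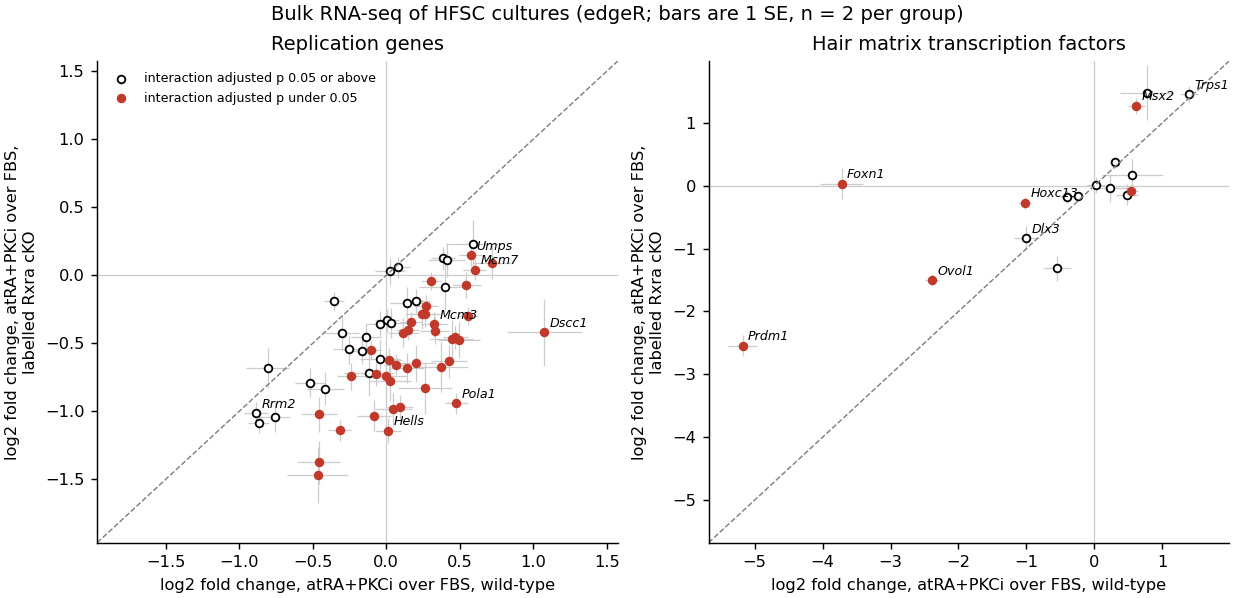
Log2 fold change from FBS to atRA+PKCi in wild-type (x axis) and in libraries labelled Rxra cKO (y axis), for 63 replication genes and 17 hair matrix transcription factors, with bars of 1 SE (n = 2 per group) and the line of equal change dashed. Red points passed the interaction test at adjusted p under 0.05, and all red replication genes lie below the line.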

How the data were processed

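Of the series, 2 in vivo and 2 cultured single cell matrices and 8 RNA-seq libraries were used. ATAC-seq, CUT&RUN, hashtag counts and the normalized RNA-seq table were not analysed here. Single cell values are whole-number UMI counts per gene and barcode, which the authors made with Cell Ranger (7.0.0 per the file headers, 7.0.1 in the submitters' processing notes, mm10) and deposited without the free RNA and doublet removal that the study's methods name, and no doublet caller was run here. In vivo matrices held 145318618 and 167258677 UMIs. For RNA-seq, the authors deposited estimated counts per gene (Salmon 1.4.0, tximport, mm10), which were rounded to whole numbers. The quality filter took barcodes with no fewer than 500 genes and 1000 UMIs whose mitochondrial share was below 10% (14458 and 13915 cells). Classes and CPM ratios were computed in Python 3.11.15 with numpy 2.4.6. Bulk counts were fitted with edgeR 4.0.16 under R 4.3.3, using filterByExpr and TMM factors, 1 mean per group and adjusted p under 0.05, and DESeq2 1.42.0 was an alternative. Both procedures were tested on simulated data. SEs were the log2 fold change over the square root of F.

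The members, gene lists and tests were chosen with earlier results of these data known. Besides genes of the lists, the text names the 6 highest and 6 lowest genes per comparison by mean log2 ratio among counted genes at 100 CPM or more that the rule did not use and whose names do not begin with mt-, Gm, Rpl or Rps, and the 6 most like the MCM set, except 1 gene that is not reported here. For splits within the members and between mice, leading genes at 100 CPM or more were chosen after their values were seen. Promoters are from RefSeq. An ORS-type class restricted to G1/S held too few cells, so a class of any phase took its place after the data were seen. Alternatives were other cell filters, thinning the MCM and mitotic sums to 5000 UMIs, stricter thresholds, leaving out cells with other markers, per-cell means, a pseudocount of 1 CPM, no filter on low values, DESeq2, a replicate block and leaving out each mouse or library. By the labels, libraries of 1 genotype with the same number came from the same mouse, so numbers pair the media. The deviations of paired libraries correlated at r = 0.067 in wild-type and -0.019 in Rxra cKO over 15965 genes.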

Additional observations from a re-analysis of the deposited data

Results flagged for a closer look

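By the interaction test of edgeR, the change from FBS to atRA+PKCi differed between genotypes for 39 replication genes, all lower in libraries labelled Rxra cKO. It also differed for 6 hair matrix factors, of which 5 were higher and 1 was lower. Of all genes, 13.3% were called higher and 11.3% lower. As the difference of the log2 fold changes (labelled Rxra cKO minus wild-type), the named replication genes gave -1.05 for Cdc6, -0.69 for Mcm3, -0.66 for Mcm5, -0.86 for Mcm6, -0.56 for Mcm7, -1.42 for Pola1, -1.49 for Dscc1, -1.15 for Hells, -1.06 for Tyms and -0.43 for Umps. The hair matrix factors gave 0.65 for Msx2, 0.74 for Hoxc13, 3.75 for Foxn1, 0.89 for Ovol1 and 2.63 for Prdm1. These genotypes came from different mice and differed in FBS level for Hells, Pola1 and Mcm6, among others. Rxra level at the gene does not check the label. With 2 mice or 2 libraries per group, no sample could be tested as standing apart from its group.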

How the results depend on the processing

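The G1/S share of matrix-gated cells was 22.9% on average and moved to 15.9% after thinning to 5000 UMIs and to 7.27% with an MCM set of at least 10 and a mitotic set under 5. Against G2/M cells, the 3 genes higher became 24 after thinning, 5 with stricter thresholds, 1 without cells holding other markers (fibroblast list not used) and 7 to 17 with 1 mouse. Against non-cycling cells, thinning gave 115 genes higher and 122 lower in place of 233 and 206, and 1 mouse gave 249 to 390 lower. Against IRS keratin-positive cells, 1 mouse gave 262 to 299 higher and 93 to 125 lower in place of 142 and 64. The cause of these shifts was not tested. The other 72 counts and shares of this kind stayed within 1.5 times or 1 SD. Of the mean log2 ratios of named genes, 270 stayed within 1 SD between mice and 114 did not. The latter were 26 of 44 after thinning, 24 of 44 without cells holding other markers and 20 of 44 with a pseudocount of 1 CPM. Each other setting that kept both mice moved 10 to 12. Leaving out a mouse left 44 of 44 unmoved for each mouse, but it could not move any. The mean of 2 mice always lies within 1 SD of either value, so these rows of the 270 do not show stability. No mean log2 ratio changed sign. Leaving out cells with fibroblast markers too left no member to compare, and stricter thresholds left too few IRS keratin-positive cells; the marker lists without fibroblasts were chosen after the data were seen.

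In RNA-seq, leaving out 1 library gave 12 to 20 replication genes higher in wild-type, 0 to 1 higher and 30 to 48 lower in libraries labelled Rxra cKO, and 17 to 41 lower by the interaction. Hair matrix factors ranged from 3 to 5 higher in wild-type and 0 to 1 lower by the interaction. Log2 fold changes near 0 changed sign. In wild-type, Hells (0.012) was at -0.015 by DESeq2, -0.011 without a filter on low counts and -0.107 to 0.0971 without 1 library. In libraries labelled Rxra cKO, without 1 library, Mcm7 (0.041) ranged from -0.048 to 0.158 and Foxn1 (0.031) from -0.284 to 0.291. No other direction turned. With the mouse as a replicate block, wild-type cultures had 19 replication genes higher and 12 lower, with 45 lower in libraries labelled Rxra cKO and 36 lower by the interaction, so no count moved by over 1.5 times. DESeq2 gave 14 and 9, 40 and 26.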
